A study of Rattus norvegicus with 2 samples.

Results

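Chemokines are small secreted proteins that direct the migration of white blood cells, and they act through receptors of the G protein-coupled kind on the cells they attract. The family members and receptors were taken by name. These were all genes whose current rat symbol began with Ccl, Cxcl, Ccr, Cxcr, Ackr, Xcl or Xcr and a digit, together with Cx3cl1, Cx3cr1 and Ccrl2. Of 58 such symbols in the rat gene table, 54 had a probe on the arrays, out of 26912 genes or unmatched transcripts in all. Ackr1, Ackr4, Ccr8 and Cxcl3 had no matched probe and were not analysed here. The 54 members were 33 ligands and 21 receptors.

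The cells were bone marrow-derived stromal cells, the adherent supporting cells of marrow, kept in culture. The control array held RNA of wild type Sprague-Dawley rats, and the transgenic array held RNA of rats of the same background that carried the human genes for renin and its substrate angiotensinogen, which together raise angiotensin II. Each group had 1 array. The promoters of the transgenes, the age and sex of the rats, and the number of animals or cultures behind each array are not given in the sources used here. No spread between animals could be measured, no test was made, and every difference has no replicate check. A size of 2-fold served as the rule for calling a difference.

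Stromal cells of the marrow are known for making Cxcl12, which keeps blood stem cells and immature leukocytes in place through the receptor Cxcr4, and for making Ccl2, which lets monocytes leave the marrow. CXC chemokines that carry the residues glutamate, leucine and arginine before their first cysteine, called ELR+, attract neutrophils through Cxcr2 and to a lesser extent Cxcr1. The CXC ligands Cxcl9, Cxcl10 and Cxcl11 lack these residues, are induced by interferon, and attract T cells through Cxcr3. Several ELR+ and CC ligands are known targets of the transcription factor NF-kappaB, which binds kappaB sites near their starts.

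The promoter stretches of 6 ligands are shown here because these ligands were far apart between the arrays, 5 higher and Cxcl10 lower in transgenic, and because their promoters hold the motif letters searched. Each is the 250 bases before the annotated start, from RefSeq on the build GRCr8, read 5′ to 3′ on the gene's strand. Capitals mark matches on either strand to the kappaB letters (GGG, any 3 bases, then TTCC) or, in Cxcl10 alone among these, the interferon-response letters (GAAA, any 2 bases, then GAAA). Overlapping matches run together.
Cxcl1: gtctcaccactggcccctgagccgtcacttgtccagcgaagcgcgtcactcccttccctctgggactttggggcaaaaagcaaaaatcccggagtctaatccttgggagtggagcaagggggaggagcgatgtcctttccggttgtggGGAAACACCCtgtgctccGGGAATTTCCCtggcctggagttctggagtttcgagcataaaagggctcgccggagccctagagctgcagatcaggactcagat
Cxcl2: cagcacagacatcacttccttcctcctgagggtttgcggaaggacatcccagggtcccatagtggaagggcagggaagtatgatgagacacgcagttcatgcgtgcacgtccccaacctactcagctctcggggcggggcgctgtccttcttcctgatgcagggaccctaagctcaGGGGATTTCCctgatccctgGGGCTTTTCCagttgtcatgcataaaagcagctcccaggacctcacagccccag
Cxcl6: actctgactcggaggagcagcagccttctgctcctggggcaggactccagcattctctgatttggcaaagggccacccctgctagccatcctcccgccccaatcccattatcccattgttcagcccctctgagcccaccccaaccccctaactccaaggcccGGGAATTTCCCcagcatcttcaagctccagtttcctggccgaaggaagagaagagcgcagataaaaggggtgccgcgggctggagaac
Ccl20: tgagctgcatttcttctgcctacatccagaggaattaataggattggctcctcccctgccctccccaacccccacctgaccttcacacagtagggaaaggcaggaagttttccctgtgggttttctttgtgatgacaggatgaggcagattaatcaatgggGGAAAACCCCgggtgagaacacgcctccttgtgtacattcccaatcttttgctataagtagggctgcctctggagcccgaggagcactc
Ccl7: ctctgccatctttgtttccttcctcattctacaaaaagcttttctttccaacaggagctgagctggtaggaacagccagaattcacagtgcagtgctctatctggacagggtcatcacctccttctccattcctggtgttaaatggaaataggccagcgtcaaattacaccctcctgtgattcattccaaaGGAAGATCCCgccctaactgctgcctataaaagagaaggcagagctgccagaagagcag
Cxcl10: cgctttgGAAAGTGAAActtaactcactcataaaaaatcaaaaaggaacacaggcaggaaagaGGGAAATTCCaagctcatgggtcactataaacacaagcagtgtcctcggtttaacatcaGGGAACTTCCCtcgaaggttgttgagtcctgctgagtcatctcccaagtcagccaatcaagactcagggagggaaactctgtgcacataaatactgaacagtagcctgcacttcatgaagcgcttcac
The stretches are chr14:17479322-17479571 on the minus strand for Cxcl1, chr14:17467256-17467505 on the minus strand for Cxcl2, chr14:17596418-17596667 on the minus strand for Cxcl6, chr9:91836909-91837158 on the plus strand for Ccl20, chr10:67513845-67514094 on the plus strand for Ccl7 and chr14:15988816-15989065 on the plus strand for Cxcl10. The arrays themselves were designed on the older build rn4, so these coordinates belong to the sequences and not to the probes.

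Matches were counted in windows that ran from 250 bases before to 50 bases after the start, which 43 of the 54 members had. Among those without one were Ccl2, Ccl3, Ccl4, Ccl5, Ccl11, Ccr4, Ccr7, Ccr9, Ccr10 and Cxcr5. The kappaB letters were in 5.37% of all 33469 windows and in 10 of the 43 member windows. Of 13 windows of members past 2-fold on the transgenic side, lower bounds included, 5 held the kappaB letters, and of the other 30 windows 5 did. All 3 matched ELR+ ligands had them, with the nearest match starting 83 bases before the start in Cxcl1, 54 in Cxcl2 and 87 in Cxcl6. Ccl20 had a match at 89 bases and Ccl7 at 59 bases. Cxcl10, which was lower in the transgenic array, held kappaB matches too, the farthest at 187 bases, so the letters were present on both sides of the comparison. The interferon-response letters were in 3.92% of all windows and in those of Cxcl10 and Ccl19. The AP-1 letters TGANTCA, a motif of the Fos and Jun factors, were in 7.33% of all windows and in 7 member windows, 1 of them among the 13. The match is a description of the letters and says nothing of binding.

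**Figure D1:**
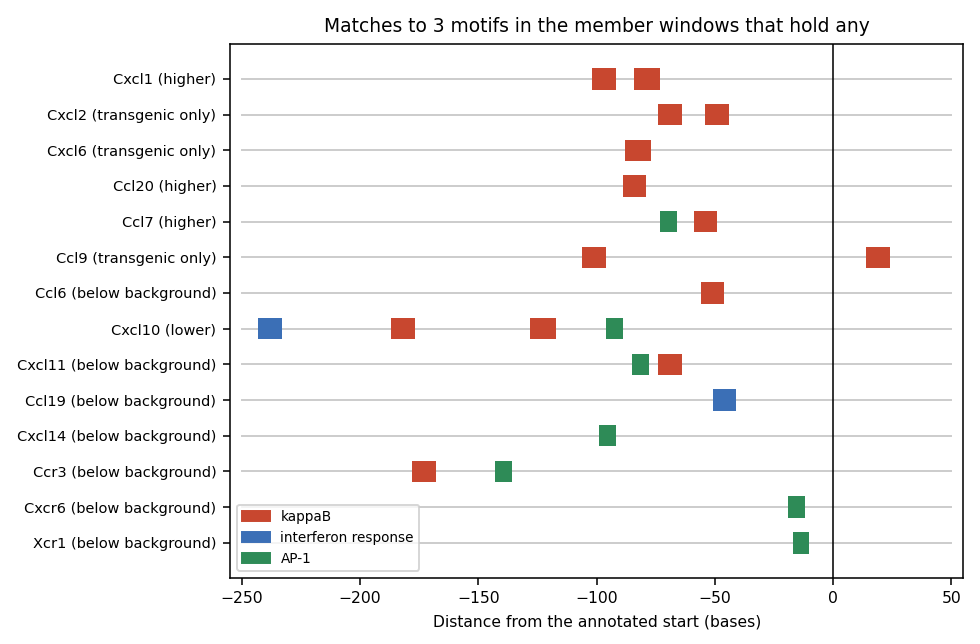
Positions of matches to 3 motifs in the 14 member windows that hold any, with distance from the annotated start in bases on the horizontal axis and the call of each gene in the array comparison in parentheses. The kappaB matches of Cxcl1, Cxcl2, Cxcl6, Ccl20 and Ccl7 lie between 102 and 45 bases before the start, and Cxcl10 holds matches to all 3 motifs.

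Signals were read on a linear scale of intensity units, and a difference is the log2 signal of the transgenic array minus that of the control array after each array was scaled to its 75th percentile (905 and 1079.7 units). A fold is therefore the ratio of the units divided by 1.19. The error that the scanner software gives for a difference had a median of 0.21 log2 over the members on both arrays, with a range from 0.20 to 0.35, and most member probes were spotted in duplicate. A gene well above background on 1 array only has a lower bound of its fold, set against the dimmest detected probe of the other array (15.3 units in control, 15.9 in transgenic) or the probe's own signal where that was higher. Levels of different genes cannot be ranked against each other, because probes differ in how they bind.

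Of the 54 members, 29 (53.7%) were well above background on at least 1 array, against 64.0% of all genes. On both arrays there were 19, and 8 of these (42.1%) were higher in transgenic by 2-fold or more, against 10.5% of all 15501 genes measured on both. The size of that contrast depends on the scale. With the arrays scaled on the probes of added control RNA (spike-in scaling), 47.4% of the 19 members and 44.7% of all genes were higher. Those shares are near each other. Spike-in scaling adds 0.99 log2 to every difference, so the median of all genes reached 0.91 log2, close to the 2-fold line. The 8 E1A spike-in probes behind this constant did not shift alike. Before scaling, the brightest differed by -0.142 log2 between the arrays and the next brightest by -0.496. Among the rest the smallest shift was -0.785. Shares and calls with spike-in scaling rest on 1 constant for all signals, and their change with a single spike-in probe was not tested. Adding a constant cannot change the order of genes by difference, in which the 8 higher members held ranks from 2 (Ccl20) to 159 (Cxcl12) of 15501. On the reported scale 3 of the 19 members were at least 2-fold lower (15.8%), against 10.3%, a share near the background. With spike-in scaling 2 of the 19 were lower, against 2.43% of all genes, so this contrast depends on the scale too. A further 9 members were detected on the transgenic array only, and for 8 of them (14.8% of the 54) the bound was at least 2-fold, against 1.6% of all genes. Ccl17 was the 1 member (1.85%) detected on the control array only with such a bound, against 1.83% of all genes. The median over the 19 members was -0.05 log2, with members far to either side of it. All 8 higher members were ligands. Over the 14 ligands on both arrays the median was 3.25 log2, and over the 5 receptors it was -0.38. Differences of at least 32-fold, or bounds of that size, were found in 7 of 28 members detected on the transgenic array (25.0%), against 0.602% of all such genes. Of these 7, the bounds of Ccl1 and Cxcl6 were under 32-fold with normexp background correction (2.88 and 4.26 log2) and in the authors' processed values (2.96 and 4.33). These counts describe the 2 arrays, and no test set the members apart from other genes.

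**Figure D2:**
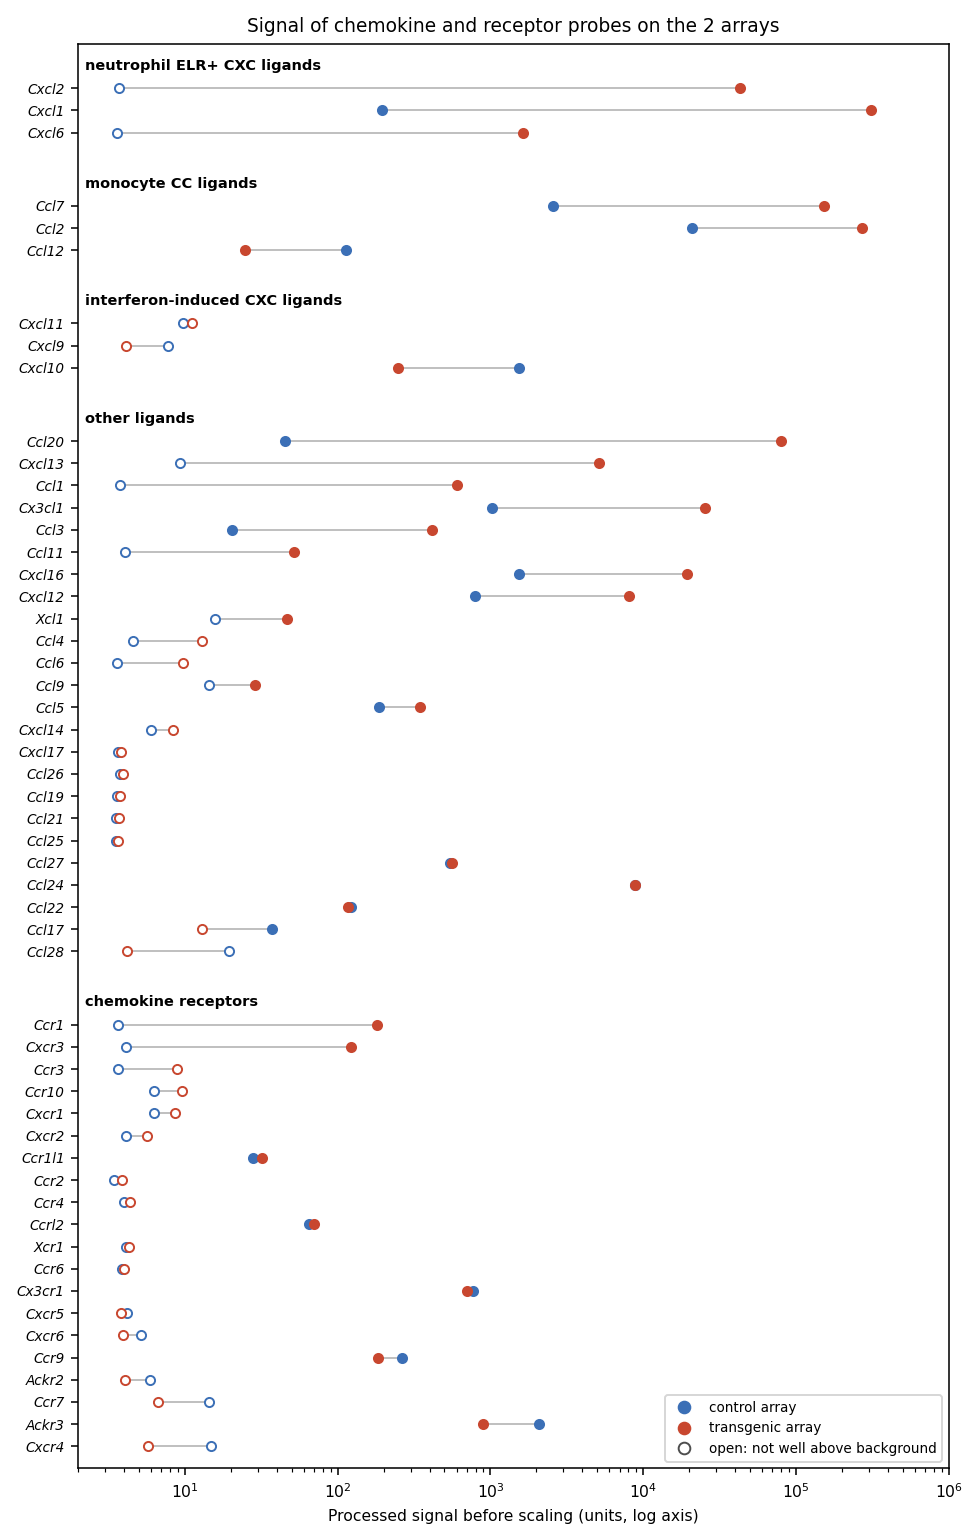
Processed signal of members on a log axis in intensity units before scaling, grouped by class, with the control array in blue, the transgenic array in red, and open circles for signals not well above background. The ELR+ ligands span from 3.58 units in control (Cxcl6) to 308332 units in transgenic (Cxcl1), while most receptors are open on both arrays.

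The ELR+ neutrophil attractants had the most uniform pattern. Cxcl1, a ligand of Cxcr2 made early in inflammation, read 196 units in control and 308332 in transgenic. It was 1319.7-fold higher (10.37 ± 0.21 log2, software error) and stood at rank 3 of 15501. Its probe was spotted 10 times, and the spots ran from 155 to 221 units in control and from 283199 to 338327 in transgenic, with no overlap. Cxcl2, its close relative and neighbour on the chromosome, was not well above background in control (3.71 units) and read 42734 units in transgenic, at least 2342-fold higher. Cxcl6 went from 3.58 units, not well above background, to 1638 units, at least 89.7-fold higher. With normexp correction, which compresses dim signals, the bounds were smaller, 8.85 log2 in place of 11.19 for Cxcl2 and 4.26 in place of 6.49 for Cxcl6. All 3 matched ligands of this class were thus far higher or detected in transgenic alone. Their receptors Cxcr1 and Cxcr2 were well above background on neither array, with at most 8.67 units for Cxcr1 and 5.63 for Cxcr2.

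The monocyte CC ligands, which act on Ccr2, split. Ccl2, the principal attractant of monocytes, read 20986 units in control and 270863 in transgenic. It was 10.8-fold higher (3.44 ± 0.20 log2), and its 10 spots ran from 20334 to 22273 in control and from 232502 to 308872 in transgenic. Ccl7, a further Ccr2 ligand, read 2568 units in control and 153104 in transgenic, 49.99-fold higher (5.64 ± 0.20 log2). Ccl12 went the other way, from 114 units in control to 24.9 in transgenic, 5.47-fold lower (-2.45 ± 0.30 log2), with the transgenic signal close to the lowest that counts as detected. Ccl12 shrank to -1.09 log2 in the authors' processed values, still past 2-fold. Ccl2, Ccl7, Ccl11, Ccl12 and Ccl1 follow one another in the gene order of GRCr8 with no other protein-coding gene between them, so neighbouring genes differed in opposite directions. Probe sequences were not used here, and cross-hybridisation among these related ligands was not tested. Their receptor Ccr2 was well above background on neither array (3.45 and 3.87 units).

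Of the interferon-induced CXC ligands only Cxcl10 was detected. It read 1541 units in control and 248 in transgenic, 7.40-fold lower (-2.89 ± 0.21 log2). Under the other scalings, normexp correction and the authors' processed values it stayed at least 2-fold lower, from -2.88 to -1.90. Probe choice and the outlier filter could not change Cxcl10, which had 1 probe and no outlier spots. Cxcl9 (7.69 and 4.09 units) and Cxcl11 (9.71 and 11.1 units), its neighbours on either side, were well above background on neither array. The shared receptor Cxcr3 was detected in transgenic only, at 123 units against 4.10 in control, at least 6.71-fold higher. With normexp correction that bound was 1.098 log2.

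Among the remaining 24 ligands, 5 of the 9 on both arrays were higher and none lower. Ccl20, which attracts Ccr6-bearing lymphocytes and dendritic cells, read 45.5 units in control and 79454 in transgenic, 1465-fold higher (10.52 ± 0.24 log2), at rank 2. Its other probe gave 28.4 and 58822 units, 1735-fold. With normexp correction Ccl20 was 9.20 log2 and in the authors' processed values 9.26, both below Cxcl1 (9.96 and 10.11). Ccl3, an inflammatory ligand of Ccr1, went from 20.2 to 416 units, 17.3-fold (4.11 ± 0.35 log2). In control 6 of its 10 spots counted as above background, with spots from 12.3 to 34.5 units, and all 10 did in transgenic, from 380 to 448 units. That control signal was dim, and the difference was 2.21 log2 with normexp correction and 2.32 in the authors' processed values.

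The ligands tied to the cell surface were higher together. Cx3cl1, or fractalkine, and Cxcl16 are made as membrane proteins and shed. Cx3cl1 went from 1028 to 25533 units, 20.8-fold (4.38 ± 0.20 log2), and Cxcl16 from 1539 to 19395 units, 10.6-fold (3.40 ± 0.20 log2). The Cx3cl1 receptor Cx3cr1 read 766 and 703 units and differed by -0.38 ± 0.20 log2, within 2-fold. The Cxcl16 receptor Cxcr6 was not well above background (5.18 and 3.94 units). Cx3cl1 lies between Ccl17 and Ccl22 in gene order, both ligands of the receptor Ccr4 on T cells. Ccl22 read 122 and 116 units (-0.33 ± 0.21 log2), and Ccl17 was detected in control only, at 36.9 units against 12.9, at least 2.76-fold lower. The Ccl17 bound was under 2-fold with spike-in scaling (-0.48 log2), normexp correction (-0.68) and the authors' processed values (-0.49).

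Cxcl12, the retention signal of the marrow, was higher on both of its probes. The probe for 1 RefSeq transcript read 788 units in control and 8032 in transgenic, 8.55-fold higher (3.10 ± 0.20 log2). The probe for another transcript read 168 and 11087 units, 55.2-fold higher, so the probes shared the direction and differed in size. Cxcr4, the signalling receptor, was well above background on neither array, at 14.9 and 5.73 units. Ackr3, an atypical receptor that takes up Cxcl12 and clears it, went from 2064 units to 890.4, 2.76-fold lower (-1.47 ± 0.20 log2). With spike-in scaling the Ackr3 difference was -0.48 log2 and no longer past 2-fold.

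Of the remaining ligands, 5 were detected in transgenic alone. Cxcl13, which draws B cells into follicles through Cxcr5, read 9.23 units in control and 5144 in transgenic, at least 282-fold higher. Ccl1, a ligand of Ccr8, read 3.75 and 602 units, at least 33.0-fold higher. With normexp correction these bounds were 5.74 log2 in place of 8.14 for Cxcl13 and 2.88 in place of 5.04 for Ccl1. Ccl11, the eosinophil attractant eotaxin, read 4.03 and 51.9 units, at least 2.84-fold higher. Xcl1, which attracts dendritic cells through Xcr1, read 15.8 and 46.4 units, at least 2.46-fold higher, while its other probe was well above background on neither array (6.84 and 13.6 units). Ccl9, a Ccr1 ligand, read 14.3 and 28.9 units with a bound of 1.58-fold, under the size rule, which it passed with spike-in scaling (1.65 log2). The bounds of Ccl11 and Xcl1 fell below 2-fold with normexp correction (0.32 and 0.19 log2) and in the authors' processed values (0.49 and 0.36).

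The other ligands on both arrays were close to level. Ccl24, the eotaxin relative that also acts on Ccr3, read 8888 units in control and 8854 in transgenic (-0.26 ± 0.20 log2). Ccl27, a ligand of Ccr10 on skin-homing T cells, read 540 and 559 units (-0.20 ± 0.20 log2). Ccl5, an attractant of T cells and monocytes, read 187 and 347 units (0.64 ± 0.21 log2). With spike-in scaling Ccl5 reached 1.63 log2, past 2-fold, and Ccl22, Ccl24 and Ccl27 turned to between 0.66 and 0.78. Ccl5 lies next to Ccl9, Ccl6, Ccl3 and Ccl4, a run in which Ccl3 was higher, Ccl9 was detected in transgenic alone, and Ccl4 (4.55 and 12.96 units) and Ccl6 (3.60 and 9.76 units) were well above background on neither array.

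Receptors were mostly undetected. Of 21, 14 were well above background on neither array, 5 were on both and 2 on the transgenic array alone. Detected on at least 1 array were thus 33.3%, against 64.0% of all genes. The 2 on the transgenic array alone had bounds past 2-fold (9.52%), against 1.6% of all genes. Ccr1, the receptor of Ccl3, Ccl7 and Ccl9 among others, read 3.64 units in control and 181 in transgenic, at least 9.94-fold higher, and Cxcr3 was the other. The Ccr1 bound was 1.54 log2 with normexp correction and 1.65 in the authors' processed values, in place of 3.31. Ccr9, the receptor of Ccl25, read 265 and 185 units (-0.77 ± 0.21 log2). Ccrl2, an atypical receptor that binds the attractant chemerin, read 64.7 and 69.5 units (-0.15 ± 0.23 log2), and Ccr1l1, a relative of Ccr1, read 27.9 and 32.1 units (-0.05 ± 0.33 log2). All 5 receptors on both arrays lay below 0 on the reported scale, but 4 of the 5 lay above 0 with spike-in scaling, so no direction is given for the group.

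Among the other members below background were the ligands Ccl19, Ccl21, Ccl25, Ccl26, Ccl28, Cxcl14 and Cxcl17 and the receptors Ackr2, Ccr3, Ccr4, Ccr6, Ccr7, Ccr10, Cxcr5 and Xcr1. Over all 25 members in this state, signals ran from 3.45 to 19.4 units in control and from 3.65 to 12.96 in transgenic. The highest of these, Ccl28 in control, rested on duplicate spots of 3.98 and 94.9 units, of which 1 counted as above background. At this sensitivity the transcripts were not detectable, which does not show that they are absent.

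**Figure D3:**
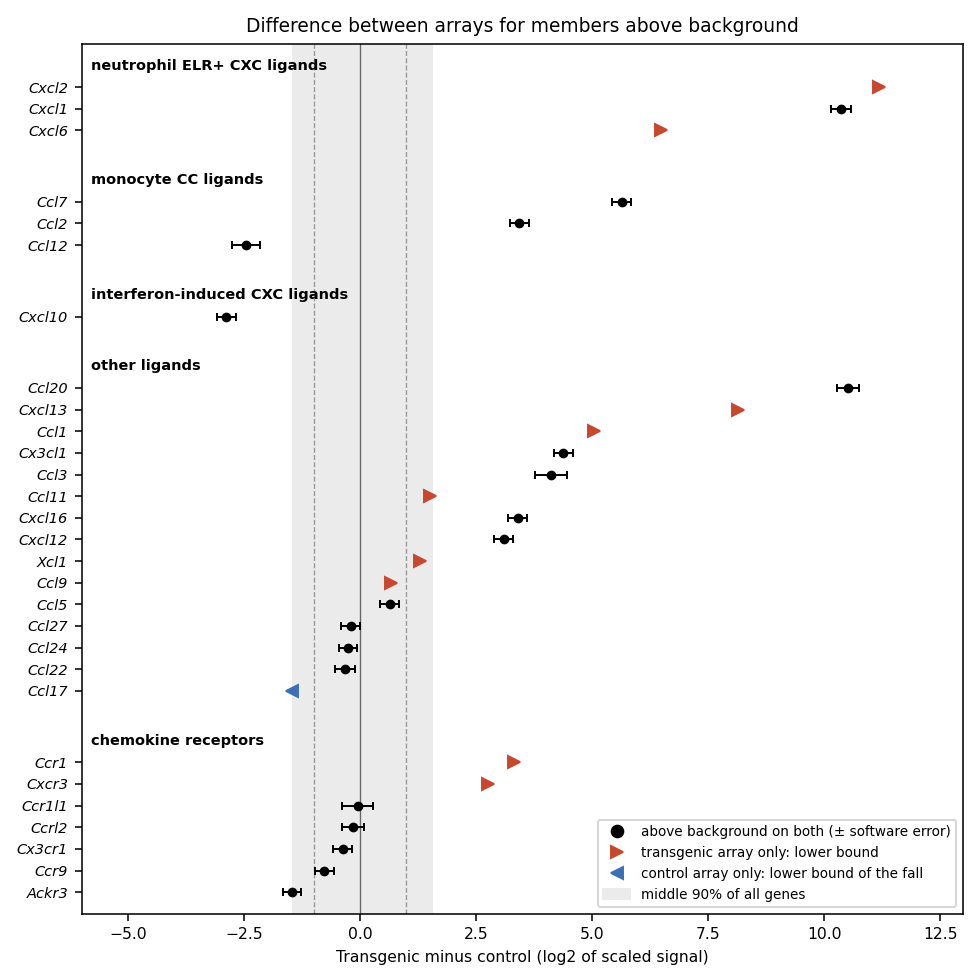
Transgenic minus control in log2 of scaled signal for the 29 detected members, with black points and software error bars for genes on both arrays and triangles for lower bounds of genes on 1 array. The grey band holds the middle 90% of all genes (-1.44 to 1.55 log2), and 12 of the 22 detected ligands lie to its right, while Ccl12, Cxcl10, Ackr3 and the Ccl17 bound lie to its left.

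The genes that act around the chemokines were read from lists. Beside the counts of these lists and of the markers below stand the shares of all genes on both arrays. On the reported scale 10.5% were at least 2-fold higher and 10.3% lower, and with spike-in scaling 44.7% and 2.43%. Bounds past 2-fold were found in 1.6% of all genes for the transgenic array alone and 1.83% for the control array alone. Of the NF-kappaB pathway and its inducers, 24 of 31 listed genes had a probe, and of the 20 on both arrays 9 were higher past 2-fold, 1 was lower, and the median was 0.75 log2. With spike-in scaling 14 of the 20 were higher and 0 lower (median 1.74 log2). Nfkb1, Rel, Relb, Nfkbiz, Tnfaip3, Il1r1 and Il17rc had no matched probe. Tlr2, a receptor of bacterial lipoproteins, went from 192 to 4741 units, 20.7-fold higher. Nfkbia, the inhibitor that holds NF-kappaB in the cytoplasm, was 9.32-fold higher, its relative Bcl3 13.5-fold and Irak3, which damps Toll-like receptor signalling, 7.60-fold, along with the TNF receptor Tnfrsf1b (6.11-fold) and the adaptor Tnip1 (4.51-fold). The cytokines Il1a and Il1b were detected in transgenic alone, at least 1061-fold and 14.99-fold higher, Tnf differed by -0.45 log2 (64.9 and 56.5 units), and Il17a was not well above background. Tlr4, the receptor of endotoxin, was 2.83-fold lower (-1.50 log2).

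The interferon axis was nearer to level. Of its 17 genes, 16 had a probe, and of 12 on both arrays 1 was higher, 2 were lower, and the median was -0.25 log2. Irf7, an interferon-induced regulator, went from 15404 to 3569 units, 5.15-fold lower, and Stat2 was 2.25-fold lower. Ifngr1, the receptor chain for interferon gamma, was 2.90-fold higher. Jak1 (-0.87 log2) and Irf5 (-0.83 log2) lay within 2-fold, and the ligands Ifng and Ifnb1 were well above background on neither array. Spike-in scaling adds 0.99 log2 to every difference, which leaves Stat2 (-0.18 log2) and Tlr4 (-0.52) within 2-fold and puts the median of this list at 0.74 log2.

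Genes of receptor signalling were largely level on the reported scale, with 4 of 20 on both arrays higher and 1 lower (median 0.26 log2). Rgs2 (3.96-fold) and Rgs3 (2.46-fold), which speed the shut-off of G proteins, the kinase Ptk2b (3.03-fold) and the receptor kinase Grk6 (2.13-fold) were higher. Rac2, a GTPase of blood cells, and Rgs1 were detected in control only, at least 15.3-fold and 2.64-fold lower. With spike-in scaling 12 of the 20 were higher, where 44.7% of all genes were, and the Rgs1 bound (-0.42 log2) was under 2-fold.

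Of 16 genes on both arrays whose proteins cleave, bind or present chemokines, 4 were higher and 5 were lower (median -0.22 log2), and with spike-in scaling 6 and 3 (median 0.76), as Fap and Sdc3 came within 2-fold. Mmp2, a protease that inactivates Cxcl12, was 6.56-fold higher, and Mmp9 was detected in transgenic alone, at least 413-fold higher. Decorin (Dcn), a matrix proteoglycan that stromal cells commonly make, read 3.96 units in control, not well above background, and 90228 in transgenic, at least 4944-fold higher. The surface proteoglycans diverged, with Sdc4 5.45-fold higher and Sdc2 5.17-fold lower. Pf4, a CXC chemokine of platelets and macrophages that the naming rule leaves out, went from 1505 units to 98.3, 18.3-fold lower, and its relative Ppbp was not well above background. Of 9 growth factors and adhesion molecules on both arrays, 7 were higher and 0 lower (median 1.23 log2), and with spike-in scaling 9 and 0 (median 2.22). Csf3, which raises neutrophil output, was the largest at 559-fold, from 323 to 215118 units, followed by Il6 (23.6-fold) and Il11 (6.54-fold). Icam1, which binds leukocyte integrins, differed by 0.14 log2, and Vcam1 was detected in transgenic alone, at least 5.14-fold higher.

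**Figure D4:**
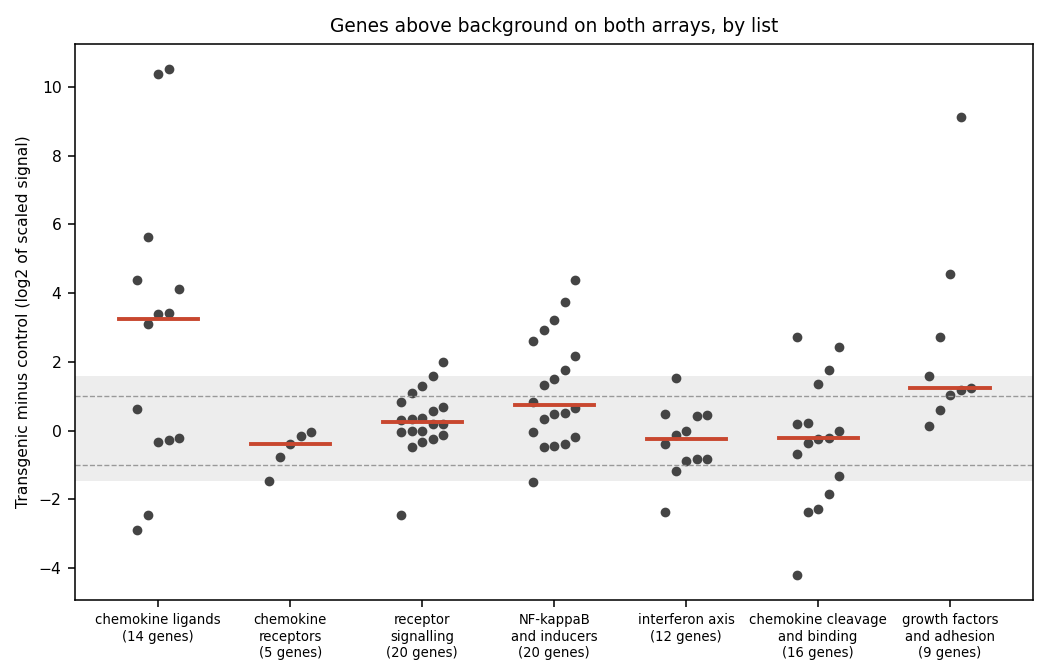
Transgenic minus control in log2 of scaled signal for genes above background on both arrays, for chemokine ligands, receptors and 5 lists of related genes, with each gene as a point, the median as a red bar and the middle 90% of all genes in grey. The ligands have a median of 3.25 log2 and span from -2.89 to 10.52, and the receptors have a median of -0.38.

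Markers checked which cells the cultures could hold. Of 13 stromal markers 11 were on both arrays, among them Col1a1 (111314 and 86945 units), Pdgfrb (36036 and 23536) and Thy1 (2396 and 4352), with 3 higher and 3 lower. The largest differences were Mcam (7.04-fold lower), Eng (5.22-fold higher), Pdgfra (3.30-fold higher) and Prrx1 (3.08-fold higher), and Lepr, a marker of stromal cells in the marrow, was not well above background. With spike-in scaling 6 of the 11 were higher and 1 lower, as Col1a2 and Itgb1 came within 2-fold. Over all genes 44.7% were then higher and 2.43% lower. Monocyte and macrophage markers moved with the arrays: of 17, 9 were on both, 6 of them lower and 2 higher, 3 were detected in control only, and their summed signal was 18134 units in control and 5591 in transgenic. Lyz2 was 151-fold, Tyrobp 46.1-fold and Fcer1g 22.3-fold lower, and the control-only markers C1qa (1328 and 4.89 units), C1qc and Adgre1 were at least 99.4-fold, 12.3-fold and 2.69-fold lower. Cd14 (1.78 log2) and Cd68 (1.58 log2) went the other way. Their transgenic signals, 2426 and 2152 units, made up most of the summed transgenic signal, a sum of units before scaling. Ptprc, Itgam, Spi1, Cd163 and Mrc1 were well above background on neither array. The part of these cells in the lower Ccl12, Cxcl10, Ccl17 and Pf4, or in any higher ligand, was not tested. With spike-in scaling 6 of the 9 on both arrays were still lower, and the Adgre1 bound (-0.44 log2) was under 2-fold. In bulk RNA fewer cells of a type and less RNA per cell cannot be told apart. Of 9 neutrophil markers with a probe, 8 were not well above background, S100a8, S100a9 and Elane among them, and Camp was 41.1-fold higher. Of 9 lymphocyte markers 2 were on both arrays and within 2-fold, Cd3g was detected in control only, and Cd3e was not well above background. Of 8 endothelial markers 2 of 4 on both arrays were lower, Erg (21.0-fold) and Flt1 (2.13-fold, and -0.11 log2 with spike-in scaling), and Pecam1, Kdr and Tek were not well above background. Of 6 platelet markers 4 were on both arrays and Pf4 was the 1 past 2-fold.

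**Figure D5:**
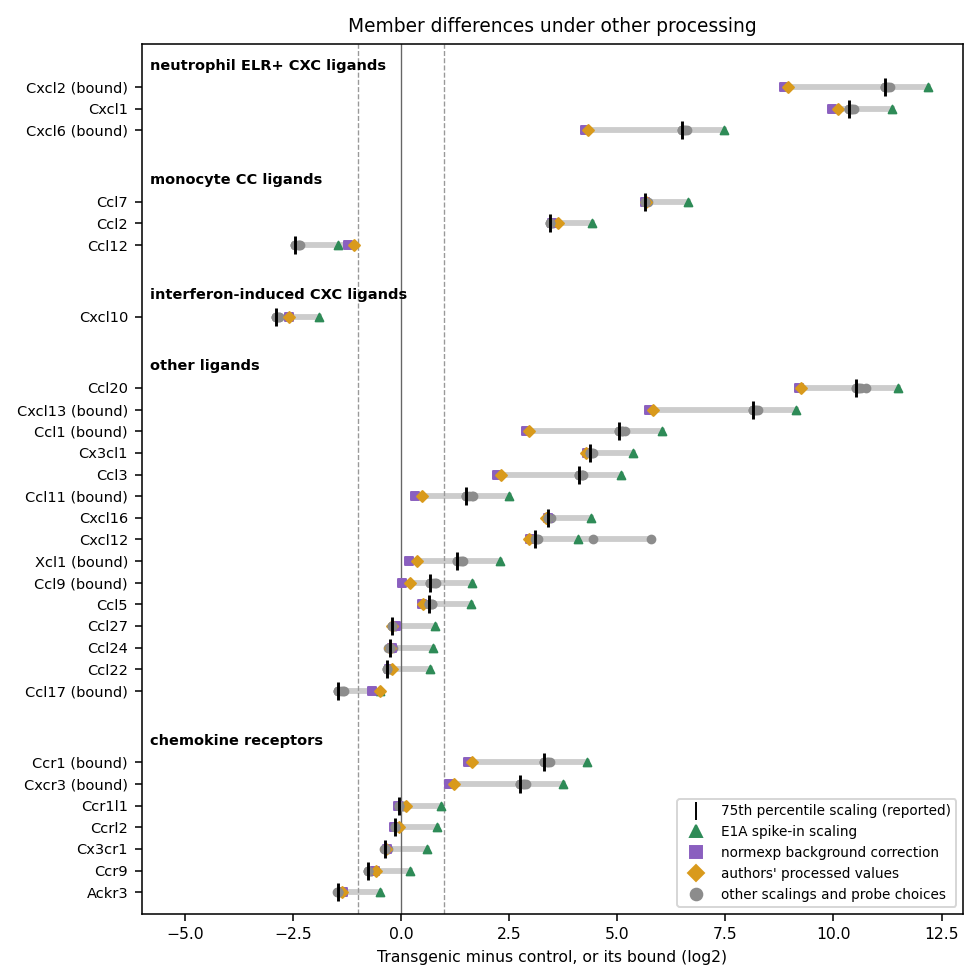
Difference or bound of the 29 detected members in log2 under the reported scaling (black ticks) and the alternatives (coloured symbols), with the full range as a grey bar and dashed lines at 2-fold. Cxcl1 ranges from 9.96 to 11.35 and Cxcl10 from -2.89 to -1.90, while Ackr3, Ccl5 and the bounds of Ccl9, Ccl11, Xcl1 and Ccl17 cross the 2-fold line.

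The scaling set the balance of the whole comparison. On the reported scale 1628 of all genes were higher and 1590 lower, and with scaling on these 8 E1A spike-in probes 6935 were higher and 377 lower. The members went from 8 higher and 3 lower to 9 higher and 2 lower, so their share of higher genes was then close to that of all genes. The order of genes by difference did not change with this scaling. A difference given here thus stands relative to the other genes of its array.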

How the data were processed

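Total RNA of 1 control and 1 transgenic culture sample was read on 1-colour arrays. Per the file headers, Agilent Feature Extraction 11.0.1.1 made the deposited intensity values, with background subtracted and no normalization between arrays, and also the other deposited columns, the flags of each spot. The authors' second table held log2 values with medians of 7.20 and 7.18, and its normalization and centring are not given in the sources used here. Its differences followed those computed here (r = 0.978 across 13619 probes, slope 0.815), in the same direction.

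Of 58717 non-control spots per array, 446 outlier spots in control and 505 in transgenic were omitted, and no spot was saturated. Log2 signals of repeated spots were averaged for each probe and the 75th percentile of the array was subtracted. To count as well above background a probe needed more than 50% of its spots to pass, which 60.2% and 60.8% of probes had, and repeated spots had a median standard deviation of 0.06 log2. RefSeq accessions without versions gave 18005 of 30366 probes a symbol of the GRCr8 gene table, and the brightest probe stood for a gene. The steps were checked on simulated data. Normexp correction (limma 3.58.1, offset 50) used the median signal. Alternatives covered scaling, background, values, probe choice, filters and size rule, and the spike-in scaling of related and marker lists was chosen after seeing the data. Every member is counted, and genes of other lists were named by size, up to 6 on both arrays and 4 by bound. Col1a1, Pdgfrb, Thy1, Icam1, Tlr4 and Fap were named after their values were seen. The values of some genes are not reported here, though counts and medians include them. Members, lists and rules were chosen with earlier results of these data known. With 1 array per group, their number limits the precision.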

Additional observations from a re-analysis of the deposited data

How the results depend on the processing

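No paired analysis was possible because each group has 1 array, and for the same reason no array could be left out. Median, quantile and loess scaling kept all counts of members at 8 higher and 3 lower. E1A spike-in scaling moved the median over members to 0.93 log2, Cxcl1 as the ELR+ ligand on both arrays to 11.35, the monocyte ligands to 4.42, Cxcl10 to -1.90, the other ligands to 4.08 and the receptors to 0.61. With normexp correction the values were 9.96 for Cxcl1, -2.59 for Cxcl10 and 2.21 for the other ligands, and with the authors' processed values 10.11, -2.60 and 2.32. Under these 3 alternatives and the 4-fold size rule 0 members detected in control only passed the bound, in place of 1. The other ligands had a median of 3.40 with the mean over probes and with the second brightest probe. Taking genes on 1 array or both gave a median of 3.10, with 16 members higher, and -0.15 for the receptors. That setting used differences in place of bounds, and 9 of its 29 members were there only through the transgenic array. Without a filter there were 19 higher and 8 lower, the other ligands had 0.70 and the interferon-induced ligands -1.16. Leaving out genes with outlier spots gave a median of 0.29. Of 259 values of single members under the alternatives, 205 moved by less than the software error, 54 moved by more and 0 reversed a call. Many of the 205 could not move, because most members had 1 probe and no outlier spots. For bounds the error includes a signal below background and is wide. Ccl11 thus counted as unmoved, though its bound went from 1.51 to 0.32 log2 with normexp correction. The second Xcl1 probe, well above background on neither array, gave no value here. The size rules change counts and no value. Dim signals limit the bounds, since a gene near 15.3 units cannot show a large fall.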
